A study of Mus musculus with 16 samples.

Results

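The unfolded protein response, the integrated stress response and the heat shock response were followed through 42 genes in the heart ventricles of mouse embryos labelled HLHS (hypoplastic left heart syndrome, in which the left side of the heart is underdeveloped) and of control embryos. The genes were taken by symbol from a list of pathway members, chosen with earlier results of these data known. All 42 symbols matched an Ensembl identifier among the 37991 genes of the deposited count table, and all 42 passed the count filter of each of the 8 comparisons. They fall into 14 chaperones and folding enzymes of the endoplasmic reticulum (ER), 6 ER stress sensors and genes of ER-associated degradation, 10 regulators and targets of the integrated stress response, 4 serine and one-carbon enzymes and 8 heat shock genes.

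Each of 8 embryos on the C57BL/6 background gave 1 library per ventricle, 16 in all, made with a TruSeq kit. The labels name 3 embryos as HLHS and 5 as control, and the series describes the controls as littermates. The alleles that the embryos carried are not stated in the labels, so HLHS is used here as the label of a phenotype, not of a genotype. Each embryonic stage is 1 litter: that of E13.5 held 1 HLHS and 1 control embryo, and those of E14.5 and E17.5 held 2 controls beside their 1 HLHS embryo, so a difference between stages cannot be told apart from one between litters. The titles of the E14.5 samples also carry another prefix than those of E13.5 and E17.5. Whatever that prefix marks cannot be told apart from stage either.

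Proteins that enter the secretory pathway fold in the ER with the help of resident chaperones, oxidoreductases and lectins. When unfolded protein accumulates, the sensors IRE1, PERK and ATF6 raise chaperone transcription through spliced XBP1 and cleaved ATF6, and PERK also slows translation by phosphorylating eIF2. That phosphorylation, which other kinases can carry out too, favours translation of ATF4, which drives genes of amino acid supply and redox balance and, with CHOP, genes of cell death and recovery. The heat shock response is a separate cytosolic and nuclear programme in which HSF1 raises chaperones. ATF4 activity, XBP1 splicing and ATF6 cleavage are set after transcription, so the transcript levels of Atf4, Xbp1 and Atf6 are not a measure of them.

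The ER stress response element (ERSE, CCAAT, 9 further bases and CCACG) is the promoter element through which ATF6 and XBP1 can act. An exact match is a description of the sequence and does not define their targets. It was searched on both strands in the 250 bases before the gene start in RefSeq's mouse promoters (GRCm38.p6, another build than that of the counts), which held 37 of the 42 members. A match was found in 8 of those 37 and in 0.113% of all 32851 promoters. The shorter ERSE-II (ATTGG, 1 base and CCACG) was found in 1 member, Herpud1, and in 0.0304% of promoters. The windows around the matches are shown 5′ to 3′ on the strand of the gene, with the boxes of each element in capitals. On genes with CGTGG and ATTGG in capitals the element lies on the opposite strand.
Hspa5: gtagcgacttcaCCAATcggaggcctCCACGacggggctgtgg
Hsp90b1: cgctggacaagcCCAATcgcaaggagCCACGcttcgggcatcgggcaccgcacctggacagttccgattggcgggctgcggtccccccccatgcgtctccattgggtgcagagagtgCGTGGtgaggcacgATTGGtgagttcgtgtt
Calr: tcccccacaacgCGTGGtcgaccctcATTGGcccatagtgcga
Canx: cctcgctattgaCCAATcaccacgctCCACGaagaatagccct
Pdia6: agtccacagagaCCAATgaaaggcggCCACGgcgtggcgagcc
Dnajc3: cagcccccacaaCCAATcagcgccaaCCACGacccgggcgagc
Creld2: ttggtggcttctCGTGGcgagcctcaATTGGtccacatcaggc
Syvn1: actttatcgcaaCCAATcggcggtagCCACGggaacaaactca
Herpud1: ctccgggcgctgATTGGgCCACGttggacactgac
They lie at chr2:34772013-34772055 (plus strand) for Hspa5, chr10:86705521-86705668 (minus strand) for Hsp90b1 with 2 matches, chr8:84847063-84847105 (minus strand) for Calr and chr11:50325788-50325830 (minus strand) for Canx. Those of the other genes are at chr12:17266479-17266521 (plus strand) for Pdia6, chr14:118937815-118937857 (plus strand) for Dnajc3, chr15:88819508-88819550 (plus strand) for Creld2, chr19:6046520-6046562 (plus strand) for Syvn1 and chr8:94386365-94386399 (plus strand) for Herpud1. In Hspa5 the element begins 65 bases before the gene start.

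Pdia4, which was called higher in HLHS in both ventricles, had no match to either element in this window, and its 250 bases are shown for that contrast. Hspa1a and Hspa1b, the stress-inducible cytosolic HSP70 genes, had the largest fold changes among the members called in the left ventricle, and differ at 3 of these 250 bases. The capitals mark a pair of heat shock units (GAANNTTC), found on either strand in 4 members, these 2, Asns and Hspb1, and in 6.69% of all promoters. The longer heat shock element, in which 2 further bases and GAA follow, contains the shorter one and was found in no member and in 0.466% of promoters. TTGCATCA, the core of the amino acid response element of ATF4, was found in Atf3, Chac1 and Herpud1 and in 0.791% of promoters.
Pdia4: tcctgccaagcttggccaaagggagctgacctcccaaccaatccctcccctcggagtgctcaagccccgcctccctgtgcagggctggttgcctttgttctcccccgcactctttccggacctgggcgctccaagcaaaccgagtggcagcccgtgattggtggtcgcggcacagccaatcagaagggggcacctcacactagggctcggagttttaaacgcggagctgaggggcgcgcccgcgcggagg
Hspa1a: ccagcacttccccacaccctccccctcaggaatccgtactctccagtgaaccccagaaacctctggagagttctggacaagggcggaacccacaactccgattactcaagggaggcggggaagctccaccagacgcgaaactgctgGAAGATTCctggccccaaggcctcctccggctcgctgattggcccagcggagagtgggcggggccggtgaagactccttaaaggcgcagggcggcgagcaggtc
Hspa1b: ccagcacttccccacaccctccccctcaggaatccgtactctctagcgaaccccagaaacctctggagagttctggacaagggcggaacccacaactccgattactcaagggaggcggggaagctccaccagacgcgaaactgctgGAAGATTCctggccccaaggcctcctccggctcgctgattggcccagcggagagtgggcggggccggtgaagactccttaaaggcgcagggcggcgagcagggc
These are chr6:47813513-47813762 (minus strand) for Pdia4, chr17:34972157-34972406 (minus strand) for Hspa1a and chr17:34959239-34959488 (minus strand) for Hspa1b. The transcripts of the HSP70 pair are also near copies. Of the 50-base windows of Hspa1a, 58.8% occur in Hspa1b, and 62.3% of those of Hspa1b occur in Hspa1a, so how the authors' counting divided reads between them is uncertain.

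Total counts ran from 17081273 to 28648645 per library. The 8 cardiomyocyte markers summed to between 19955 and 35060.0 CPM (counts scaled to library size) per library, and 5 liver genes to at most 14.2. Levels below are CPM with TMM factors, and changes are log2 values ± standard error with an adjusted p over all genes tested. In bulk ventricle, fewer cells of a type and less RNA per cell cannot be told apart. The red cell markers moved with phenotype in the left ventricle, where 6 of 7 tested were higher in HLHS (median log2 change 1.29). Their summed level, over 8 genes, was 276, 216 and 59.0 CPM in the HLHS left ventricles of E13.5, E14.5 and E17.5, against 26.6 to 138 in the controls, with Hbb-bh1 at 0 CPM in its lowest library. Smooth muscle markers were called 3 higher and 1 lower of 5 there. Fibroblast markers were lower for 4 of 8 (6 in DESeq2) and endothelial markers for 3 of 8 (5 in DESeq2), and at E14.5 all 8 of each list were below both littermates.

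In the left ventricle of HLHS hearts all 14 ER chaperones had an estimate above 0, and the HLHS libraries lay above their littermates in the E13.5 and E14.5 litters and mostly not at E17.5. The group had a median log2 change of 0.25 against 0.01 for all 15979 genes tested. Pdia4, a protein disulfide isomerase, rose by 0.37 ± 0.09 (1.29-fold, adjusted p = 0.0282), and Dnajb9, a luminal co-chaperone of BiP, rose by 0.35 ± 0.09 (1.27-fold, adjusted p = 0.0314). Over all groups 7 members were called higher and 0 lower, where 6.17% of all genes were called higher, 6.61% lower and 12.8% in either direction. DESeq2 called 14 members higher and 0 lower, among them 6 chaperones. The shares of all genes given here are those of edgeR, so counts of members called by DESeq2 cannot be read against them. In edgeR 20 members had an unadjusted p under 0.05, a share to be read against 28.8% of all genes.

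**Figure D1:**
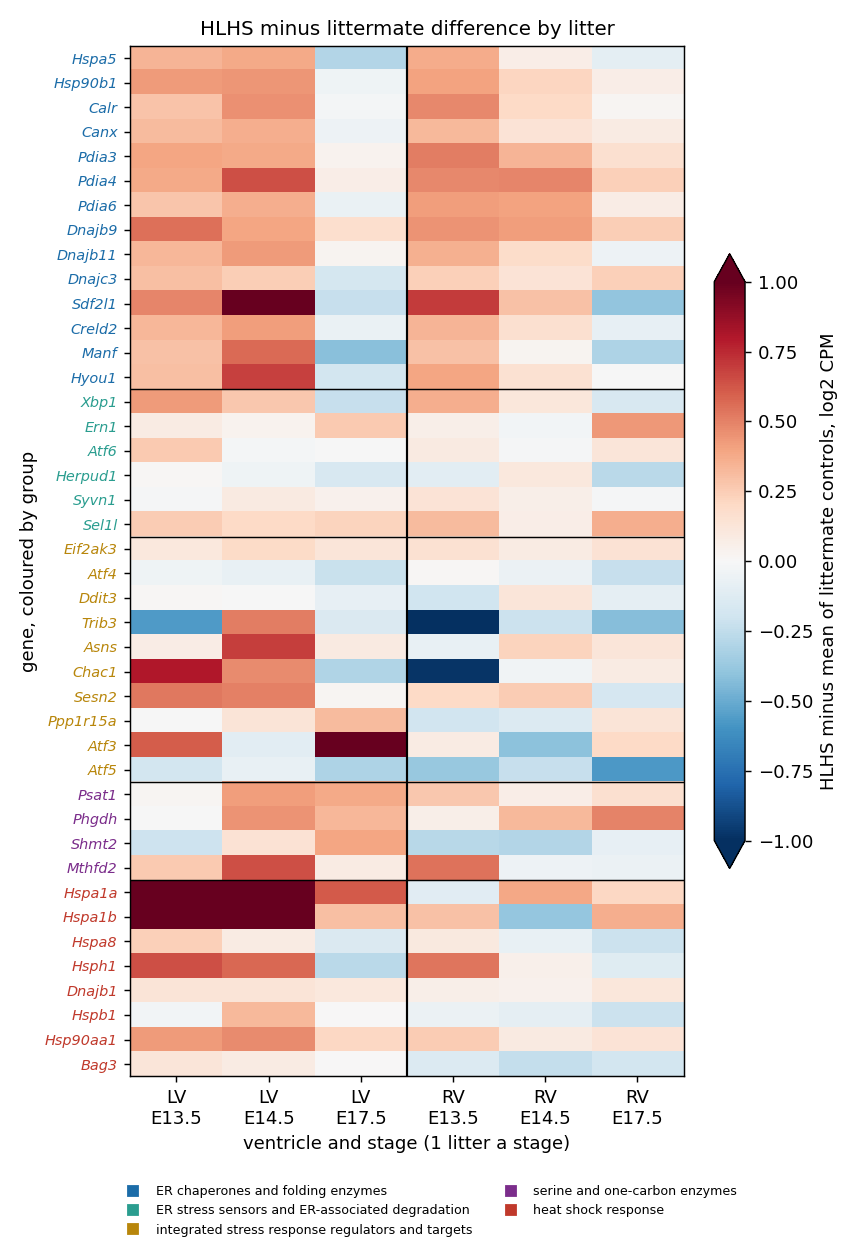
Each cell is the log2 CPM of the HLHS library minus the mean of its littermate controls for 1 gene, by ventricle (LV left, RV right) and stage, with genes coloured by group. The chaperone rows at the top are red in the left ventricle at E13.5 and E14.5 and mostly pale or blue at E17.5, and the Hspa1a and Hspa1b rows are beyond the end of the scale in the left ventricle at E13.5 and E14.5.

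Pdia4 stood at 182 and 209 CPM in the HLHS left ventricles of E13.5 and E14.5, above the littermate values of 139 at E13.5 and 133 and 135 at E14.5. At E17.5 it was at 128 against 122 and 123, so the HLHS library was again above both littermates, by a smaller margin. Dnajb9 was at 17.47, 32.5 and 35.6 CPM in HLHS from the earliest to the latest stage. Its controls were at 11.9, at 23.8 and 25.6, and at 33.4 and 29.9, so each HLHS library was above its littermates while the stages overlapped. Hspa5, which encodes BiP, the main ER HSP70 and the repressor of all 3 sensors, was at 687 and 734 CPM in the first 2 litters against 542, 582 and 549. At E17.5 the order turned, with 652 CPM in HLHS below 811 and 788 in the controls, and its log2 change over the 3 litters was 0.13 ± 0.12 (adjusted p = 0.502). Hsp90b1, the ER HSP90, was also above its littermates in the first 2 litters, at 484 and 512 against 359, 387 and 367. At E17.5 it was close to the lower control, at 395 against 397 and 417. Its log2 change over the 3 litters was 0.27 ± 0.09 (adjusted p = 0.0959).

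Counted gene by gene, the HLHS left ventricle was above all its littermate controls for 14 of 14 chaperones at E13.5, where 53.4% of all genes were above and 46.5% below. At E14.5 it was above for 14 of 14 again, against 40.6% of all genes above and 42.3% below. At E17.5 it was above both littermates for 2 of 14 (39.4% of all genes) and below both for 9 (38.9% of all genes). The median log2 difference of the group was 0.33, 0.42 and −0.05 in stage order. The summed chaperone level was 3893, 4357 and 3279 CPM in HLHS, against 3073 in the E13.5 control, 3294 and 3207 at E14.5 and 3537 and 3481 at E17.5. The median difference between the 2 control littermates themselves was 0.07 at E14.5 and again 0.07 at E17.5, on the log2 scale and without sign.

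Without the E17.5 litter, a choice made after seeing the data, all 14 chaperones were called higher in the left ventricle and the members called went from 7 to 22, while 6.89% of all genes were called higher and 12.3% in either direction. The estimates then ran from 0.28 ± 0.06 for Dnajc3, the co-chaperone p58IPK, to 0.84 ± 0.14 for Sdf2l1, an ER co-factor of BiP. Hspa5 reached 0.37 ± 0.07 (adjusted p = 0.0158) and Pdia4 0.54 ± 0.07 (adjusted p = 0.00477) in that fit. In that fit 6 of 7 red cell markers (median 1.24) and 4 of 5 smooth muscle markers were called higher, and 4 of 8 endothelial and 3 of 8 cardiomyocyte markers lower. The part of these in the result was not tested. With all 3 litters the call for Pdia4 was lost without control replicate 1, 2 or 3 or HLHS replicate 1 or 2 (adjusted p up to 0.142). That for Dnajb9 was lost without those or control replicate 5 (up to 0.137). The count of 7 members fell to 3 without control replicate 2 and to 2 without HLHS replicate 2.

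The right ventricle of the same HLHS embryos had higher levels of 3 chaperones. Pdia3, a thiol oxidoreductase that works with calnexin and calreticulin, rose by 0.32 ± 0.08 (1.25-fold, adjusted p = 0.0398), Pdia4 by 0.39 ± 0.07 (1.31-fold, adjusted p = 0.016) and Dnajb9 by 0.36 ± 0.08 (1.29-fold, adjusted p = 0.028). In all, 4 members were called, where 6.61% of all genes were. Of these 3 were higher, where 3.56% of genes were, and 1 lower, where 3.05% were. An unadjusted p under 0.05 was reached by 14 members, a share to be read against 23.5% of all genes, and DESeq2 called 5. The chaperone median was 0.18, with 13 of 14 estimates above 0.

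Pdia3 was at 593, 511 and 445 CPM in the HLHS right ventricles in stage order, above every control, which held 389 to 415. Pdia4 was at 196, 178 and 141 CPM against 140.4, then 129 and 125, then 111 and 128, so again no HLHS library overlapped its littermates. Dnajb9 was at 17, 31.7 and 33.3 CPM against 12.4, then 24.1 and 23.3, then 26.7 and 29.4. Each of these 3 genes was higher in 3 of 3 litters. The HLHS right ventricle was above all its littermates for 14 of 14 chaperones at E13.5, 13 of 14 at E14.5 and 8 of 14 at E17.5, where 52.5%, 37.6% and 40.5% of all genes were. It was below them for 0, 0 and 4 chaperones, where 47.4%, 36.4% and 36.3% of all genes were. The median log2 difference was 0.40, 0.19 and 0.04. Red cell markers gave no call in the right ventricle in edgeR, with 1 of 8 at an unadjusted p under 0.05, 1 call in DESeq2 and a median of −0.05. The fibroblast markers had a median of 0.35 there with no call in edgeR (7 of 8 at an unadjusted p under 0.05), and DESeq2 called 4 higher. At E13.5 all 8 fibroblast and all 6 epicardial markers were above the littermate on the right, with median log2 differences of 0.85 and 1.22. Of the smooth muscle markers 2 of 5 were higher. The part of these markers in the result was not tested.

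The right ventricle calls were sensitive to single libraries. Without control replicate 1, HLHS replicate 1 or HLHS replicate 2, 0 of the 42 members were called, and without control replicate 3, 4 or 5 or HLHS replicate 3 the number was 1 or 2. Without the E17.5 litter 1 member was called, Pdia4 at 0.48 ± 0.07 (adjusted p = 0.0289), where 0.464% of all genes were called higher and 1.28% in either direction.

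**Figure D2:**
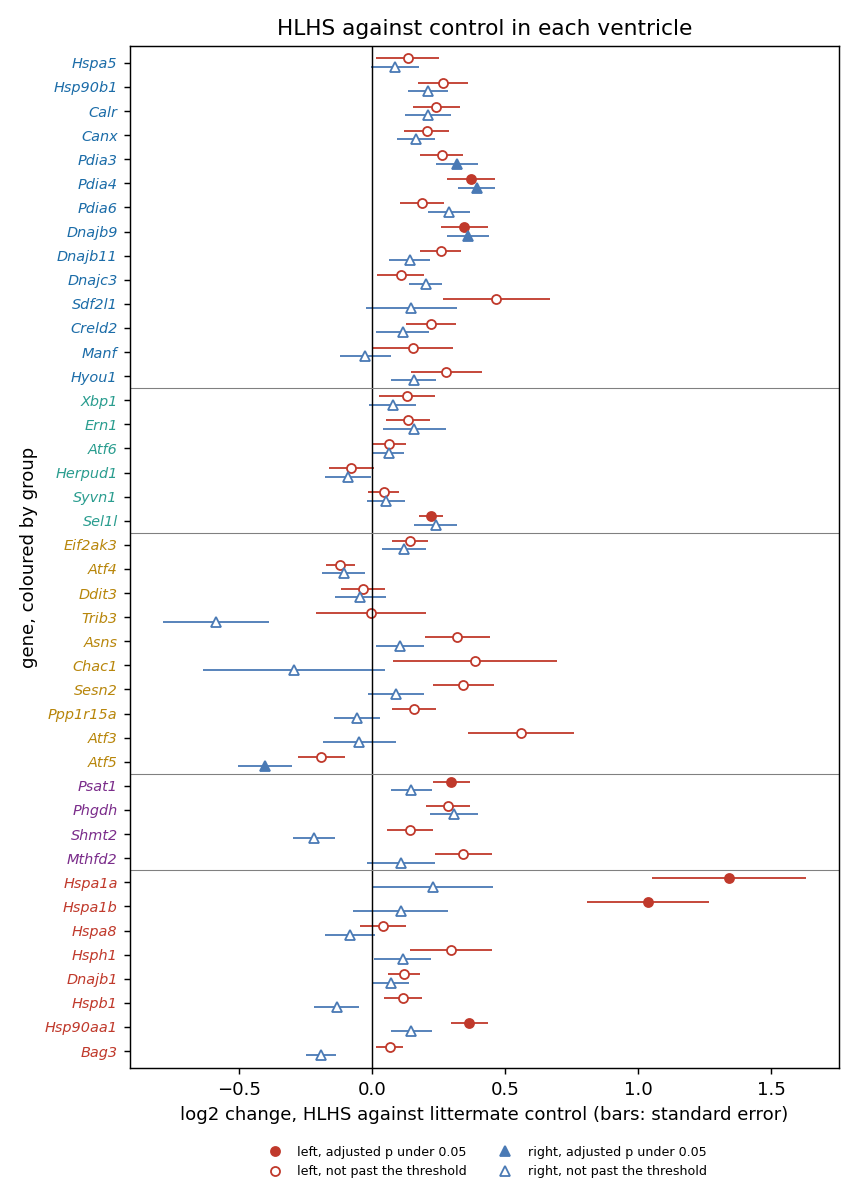
Points are log2 changes of HLHS against littermate control over the 3 litters with standard errors, circles for the left and triangles for the right ventricle, filled where the adjusted p is under 0.05. Pdia4 and Dnajb9 are filled in both ventricles, while Sel1l, Psat1, Hspa1a, Hspa1b and Hsp90aa1 are filled in the left and Pdia3 and Atf5 in the right.

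Of the sensors and the degradation genes 1 of 6 passed, a share close to the 12.8% of all genes called in the left ventricle. Sel1l, the adaptor of the HRD1 ubiquitin ligase that clears misfolded ER proteins, was the one member of this group called, 0.22 ± 0.05 higher in the left ventricle (1.17-fold, adjusted p = 0.0142). It was at 134, 111 and 129 CPM in the HLHS left ventricles in stage order and at 112, at 98.9 and 95.5, and at 108 and 113 in the controls. Each HLHS library thus lay above its littermates, and the call held in 8 of 8 fits that left out 1 embryo. Sel1l had an estimate of similar size on the right, 0.24 ± 0.08 (adjusted p = 0.111).

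Xbp1 was at 79.0, 83.2 and 106 CPM in HLHS left ventricles and at 58.8, at 68.0 and 69.6, and at 127 and 120.2 in controls. It was therefore above its littermates in the first 2 litters and below them at E17.5, as Hspa5 was, with a change over the 3 litters of 0.13 ± 0.11 (adjusted p = 0.452). Ern1, the gene of IRE1, had estimates of 0.13 ± 0.08 on the left and 0.16 ± 0.12 on the right. Atf6 had 0.06 ± 0.06 on both sides. In the HLHS left ventricles it was at 83.2, 71.0 and 81.9 CPM against 69.3, then 72.0 and 71.8, then 83.9 and 80.5. It was thus above its littermate at E13.5, just below both at E14.5 and between them at E17.5. Herpud1, the ER degradation gene with the ERSE-II match, had negative estimates on both sides (−0.08 ± 0.08 and −0.09 ± 0.09). None of Xbp1, Ern1, Atf6, Herpud1 and Syvn1 passed in either ventricle with the 3 litters. Of the 6 genes of the group, 1 had an unadjusted p under 0.05 on each side and DESeq2 called Sel1l alone, on the left.

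In the left ventricle edgeR called 0 of the 10 integrated stress response genes, where 12.8% of all genes were called. An unadjusted p under 0.05 was reached by 3, where 28.8% of all genes did, and DESeq2 called 1, Atf3. On the right Atf5 alone was called, as lower, where 6.61% of all genes were called in either direction. The median log2 change was 0.15 on the left and −0.05 on the right. Atf4, the central transcription factor of the branch, was at 145, 134 and 108 CPM in the HLHS left ventricles against 149.6, then 141 and 140.2, then 132 and 120.7 in controls. Each HLHS library was below its littermates, by a log2 change of −0.12 ± 0.06 that did not pass (adjusted p = 0.194). Ddit3, which encodes CHOP, was at 18.1, 12.8 and 17.2 CPM against 17.9, then 12.2 and 13.7, then 17.9 and 18.5, which are nearly the same levels (−0.03 ± 0.08, adjusted p = 0.839). Eif2ak3, the gene of PERK, had 0.14 ± 0.07 on the left and 0.12 ± 0.08 on the right.

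Asns, the asparagine synthetase gene and a classic ATF4 target, stood out most in the E14.5 litter. It was at 18.4, 23.3 and 12.1 CPM in HLHS left ventricles against 17.4, then 14.6 and 14.3, then 11.2 and 11.5, and its change of 0.32 ± 0.12 did not pass (adjusted p = 0.118). Sesn2, a stress-induced inhibitor of mTORC1 signalling, was at 23.6, 18 and 13.1 CPM against 16.4, then 13.1 and 12.3, then 12.1 and 13.7, above its littermates in the first 2 litters. It was called higher in the left-ventricle fit without the E17.5 litter (0.52 ± 0.10, adjusted p = 0.0158), a choice made after seeing the data. That fit called 1 of the 10 genes of this group, where 12.3% of all genes were called. Chac1, a glutathione-degrading enzyme, had 7 to 30 reads per library, and its estimates had standard errors of 0.31 and 0.34.

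Atf5, a transcription factor translated like ATF4 and known for the mitochondrial unfolded protein response, fell by 0.40 ± 0.10 in the right ventricle (adjusted p = 0.0453). It was at 14.1 CPM in the HLHS right ventricles of E13.5 and again of E14.5 and at 18.3 at E17.5, against 18.4, then 16.5 and 16.7, then 29.5 and 25.3, so it was below its littermates in 3 of 3 litters. On the left Atf5 was at 15.2, 16.4 and 20.2 CPM against 17.2, then 17.3 and 17.4, then 26.9 and 23.2, with −0.19 ± 0.09 (adjusted p = 0.188). The right-sided call was lost in each fit that left out 1 embryo, except the one without control replicate 2.

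Atf3, an immediate early and stress transcription factor, differed between the ventricles of HLHS hearts. It was 0.70 ± 0.12 higher on the left (1.63-fold, adjusted p = 0.0152), the one member called in that comparison, where 4.04% of all genes were (1.15% higher on the left, 2.89% lower). An unadjusted p under 0.05 was reached by 7 members, where 16% of all genes did. Its left and right levels were 22.1 and 11.7 CPM at E13.5, 11.8 and 8.53 at E14.5 and 34.8 and 22.0 at E17.5, so the left was higher in 3 of 3 HLHS embryos. In controls the left was higher in 2 of 5 embryos, with a log2 difference of 0.03 ± 0.11. The test of whether the HLHS effect on Atf3 differed between the sides gave 0.60 ± 0.14 (adjusted p = 0.074), which missed the threshold, and the side difference in HLHS was lost without HLHS replicate 1 (adjusted p = 0.0744). Of the 13 immediate early genes measured as a sign of tissue handling, edgeR called 0 and DESeq2 1 between the ventricles of HLHS hearts. In edgeR 4 had an unadjusted p under 0.05. Ier3 (0.49 ± 0.13) and Btg2 (0.30 ± 0.09) were higher on the left, and Egr1 (−0.31 ± 0.10) and Socs3 (−0.36 ± 0.15) lower. Fosb (0.65 ± 0.29) and Junb (0.23 ± 0.13) were not among the 4. Against controls 2 were higher in the HLHS left ventricle, Junb (0.44 ± 0.10) and Fosb (1.30 ± 0.33). Between the ventricles of HLHS hearts 4 of 8 fibroblast markers were lower on the left and 3 of 8 red cell markers higher. The part of these in the Atf3 values was not tested.

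The serine and one-carbon enzymes, which ATF4 also controls, had 4 of 4 estimates above 0 in the left ventricle, with a median of 0.29. Psat1, the aminotransferase of serine synthesis, rose by 0.30 ± 0.07 (1.23-fold, adjusted p = 0.0211). It was at 111, 161 and 118 CPM in HLHS against 109.8, then 122 and 119, then 89.7 and 92.9, so the difference was almost nil at E13.5 and present in the later 2 litters. The call was lost without control replicate 2, 3 or 4 or HLHS replicate 2 or 3 (adjusted p 0.0541 to 0.141). It was also lost without the E17.5 litter (0.26 ± 0.09, adjusted p = 0.0882).

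Phgdh, the first enzyme of serine synthesis, did not pass in either ventricle in edgeR (0.29 ± 0.08, adjusted p = 0.052 on the left and 0.31 ± 0.09, adjusted p = 0.0718 on the right). On the left it was at 61.4, 86.2 and 34.7 CPM in HLHS against 61.7, then 63.5 and 62.5, then 26.2 and 29 in controls. The HLHS library was above its littermates at E14.5 and E17.5 and level with the control at E13.5. Mthfd2, a mitochondrial folate enzyme, had 0.34 ± 0.11 on the left (adjusted p = 0.0653) and Shmt2, the mitochondrial serine hydroxymethyltransferase, 0.14 ± 0.09. DESeq2 called Psat1, Phgdh and Mthfd2 higher on the left. On the right edgeR called 0 of the 4, with 2 at an unadjusted p under 0.05, and DESeq2 also called 0.

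The heat shock group held genes that were called higher in the left ventricle and genes that were not. Hspa1a rose by 1.34 ± 0.29 (2.54-fold, adjusted p = 0.0173), Hspa1b by 1.04 ± 0.23 (2.05-fold, adjusted p = 0.0188) and Hsp90aa1, the inducible cytosolic HSP90, by 0.37 ± 0.07 (1.29-fold, adjusted p = 0.00965). Hspa8, the constitutive cytosolic HSP70, had 0.04 ± 0.09 (adjusted p = 0.788), and Hspb1, Dnajb1 and Bag3 had 0.07 to 0.12. The group median was 0.21. A missed threshold does not show that a gene was unchanged. Dnajb1 was at 56.9 to 57.9 CPM in the HLHS left ventricles against 51.2 to 54.8 in the controls. Dnajb1 and Bag3 were higher in 3 of 3 litters there, and Hspa8 and Hspb1 in 2 of 3.

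Hspa1a was at 2.38, 3.14 and 2.76 CPM in the HLHS left ventricles in stage order. Its controls were at 0.590, at 0.966 and 0.870, and at 2.28 and 1.38, so every HLHS library was above every control of the left ventricle, with the highest control, at E17.5, close to the lowest HLHS library, at E13.5. Hspa1b was at 5.01, 6.48 and 4.79 CPM against 2.25, then 2.01 and 2.07, then 3.61 and 4.13, again above every control. Both are low: Hspa1a had 9 to 75 reads and Hspa1b 31 to 180 reads in each library. Because the pair shares most of its sequence, its reads cannot be told apart with certainty, and the 2 results are not independent.

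In the right ventricle of HLHS hearts the pair had no such difference. Hspa1a was at 0.483, 1.35 and 2.39 CPM against 0.528, then 1.26 and 0.812, then 2.27 and 1.86, with 0.23 ± 0.23 (adjusted p = 0.596). Hspa1b was at 2.25, 1.67 and 7.07 CPM against 1.82, then 2.21 and 2.19, then 5.13 and 5.82, with 0.11 ± 0.18 (adjusted p = 0.765). The difference between the sides in the HLHS effect was 1.01 ± 0.33 for Hspa1a and 0.85 ± 0.33 for Hspa1b and did not pass (adjusted p = 0.225 and 0.334).

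Hsp90aa1 was at 595, 719 and 538 CPM in HLHS left ventricles against 442, then 534 and 505, then 466 and 464, above every control. Of the fits that left out 1 embryo, it passed in 7 of 8 and missed without HLHS replicate 2 (adjusted p = 0.0548). The calls for Hspa1a and Hspa1b were lost without control replicate 1 or HLHS replicate 1 or 2, and that for Hspa1b also without control replicate 2 (adjusted p 0.0521 to 0.133). Hsph1, the HSP110 nucleotide exchange factor, was at 66.9 and 67.6 CPM in the first 2 HLHS litters against 42.8, 48.8 and 42.1, then at 58.8 against 73.3 and 68.7. It thus lay above its littermates at E13.5 and E14.5 and below them at E17.5, and did not pass over the 3 litters (0.30 ± 0.15, adjusted p = 0.24). Smooth muscle markers moved in the same libraries, with 3 of 5 higher and 1 lower in the HLHS left ventricle and summed levels of 2396 to 3988 CPM against 2019 to 2271 in controls. Their part in these results was not tested.

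**Figure D3:**
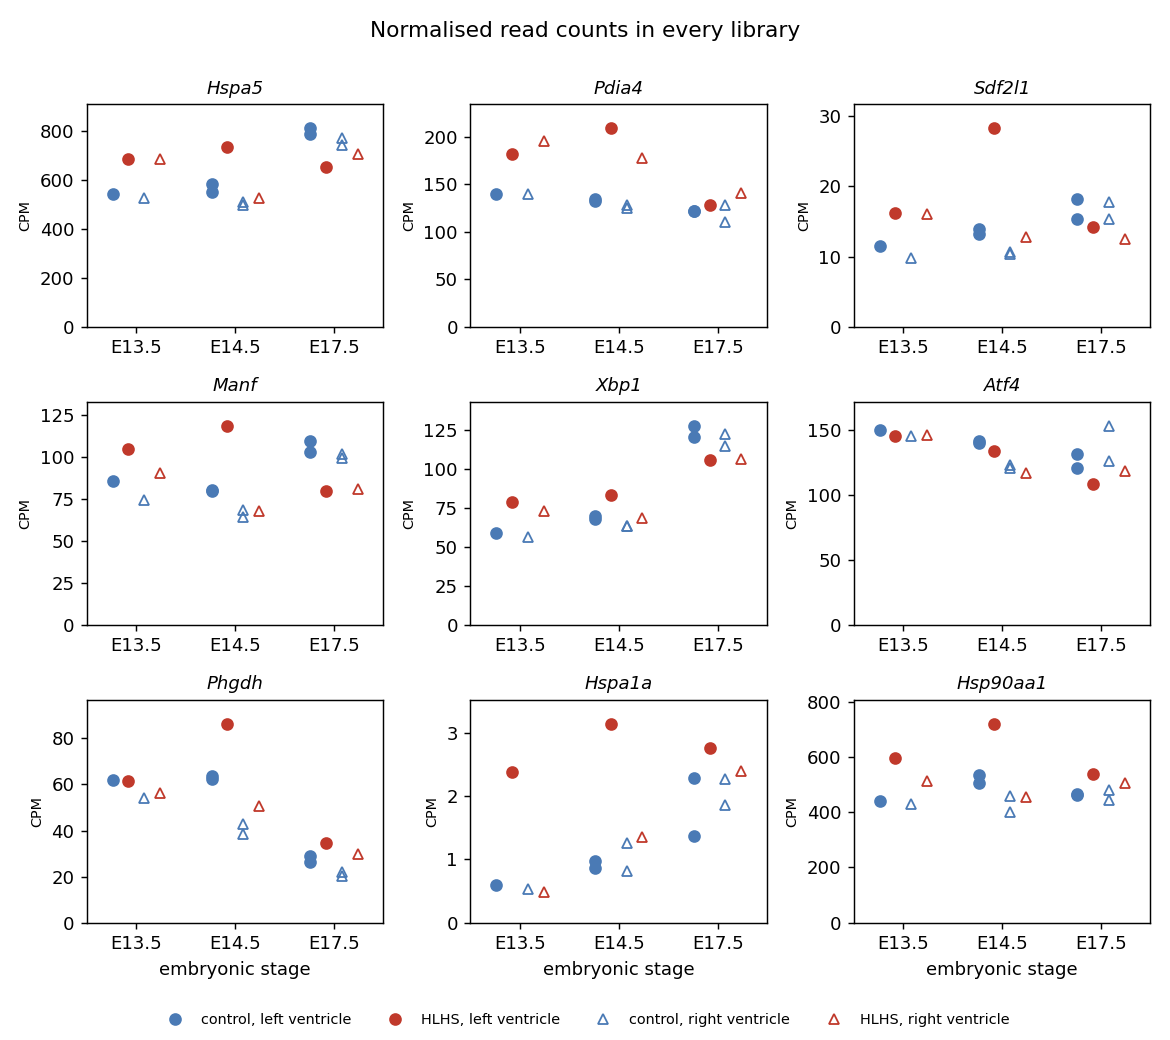
Each panel shows 1 gene in all 16 libraries, with CPM on a linear axis from 0 by stage, controls in blue and HLHS in red, filled circles for the left and open triangles for the right ventricle. Hspa5, Manf and Xbp1 in HLHS left ventricles are above controls at E13.5 and E14.5 and below them at E17.5, whereas Hspa1a and Hsp90aa1 in the HLHS left ventricle stay above left controls at each stage.

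Between the ventricles, no member had an HLHS effect that differed past the threshold. edgeR called 0 of 42, DESeq2 0, and 11 had an unadjusted p under 0.05, where 11.9% of all genes did and 1.04% were called (0.533% higher, 0.503% lower). A p that misses the threshold does not show that the sides are alike. For Pdia4, called in both ventricles, left minus right was −0.03 ± 0.08, and for Dnajb9 −0.02 ± 0.10. For Sel1l it was −0.02 ± 0.08 and for Psat1 0.15 ± 0.11. All 8 heat shock genes and 9 of 10 integrated stress response genes had an estimate above 0, with medians of 0.23 and 0.21, while the chaperone median was 0.03 and that of all genes −0.01.

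In control hearts left and right ventricles differed for 2 of the 42 members, where 6.1% of all genes differed (2.09% higher on the left, 4.01% lower). An unadjusted p under 0.05 was reached by 11 members, against 21% of all genes. Phgdh was 0.45 ± 0.08 higher on the left (1.37-fold, adjusted p = 0.00742), with left and right levels of 61.7 and 54.0 CPM at E13.5, 63.5 and 38.4 and 62.5 and 43.0 at E14.5, and 26.2 and 21.9 and 29 and 20.4 at E17.5. The left was higher in 5 of 5 embryos, and the call held in 5 of 5 fits that left out an embryo. In HLHS hearts the estimate was 0.40 ± 0.13 (adjusted p = 0.148), and the left was higher in 3 of 3. Ppp1r15a, which encodes the GADD34 subunit that reverses eIF2 phosphorylation, was 0.22 ± 0.05 lower on the left in controls (adjusted p = 0.0279), in 5 of 5 embryos. Its call was lost without control replicate 1, 2, 3 or 5 (adjusted p up to 0.14) and in DESeq2 (adjusted p = 0.0754).

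Of the comparisons made, that of stage in controls called the most members, and it divided the chaperones. Between the E14.5 and E17.5 litters of controls, with both ventricles of an embryo summed, 19 members were higher and 2 lower at E17.5, where 15.1% of all genes were higher, 13% lower and 28.2% either. DESeq2 called 18 higher and 2 lower, and 23 members had an unadjusted p under 0.05, against 41.6% of all genes. Among the chaperones 7 of 14 rose, and the other 7, the lectins and disulfide isomerases Calr, Canx, Pdia3, Pdia4 and Pdia6 with Hsp90b1 and Dnajb11, had estimates between −0.10 and 0.13. Hspa5 rose by 0.55 ± 0.07 (adjusted p = 0.00284), from 499 to 582 CPM over the 4 control libraries of E14.5 to 741 to 811 over those of E17.5. Hyou1, the ER HSP110, rose by 0.63 ± 0.08, Dnajc3 by 0.53 ± 0.07, Manf, a secreted ER stress factor, by 0.51 ± 0.07, Sdf2l1 by 0.48 ± 0.10, Creld2 by 0.47 ± 0.08 and Dnajb9 by 0.31 ± 0.08. None of the 7 overlapped between the stages, but they were called from these same libraries. Asns, which was not called, did not overlap either (13.7 to 14.6 CPM at E14.5, 11.2 to 12.5 at E17.5). The share of all genes without overlap was not counted. The call for Dnajb9 was lost without control replicate 2, 3 or 4 (adjusted p 0.0548 to 0.0966) and in right ventricles alone, and that for Sdf2l1 in left ventricles alone (adjusted p = 0.0669).

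The largest rises outside the chaperones were those of the Hspa1 pair, Herpud1 and Xbp1. Herpud1 rose by 0.93 ± 0.10 (1.91-fold, adjusted p = 0.00148), from 44.5 to 59.3 CPM at E14.5 to 94.3 to 106 at E17.5. Xbp1 rose by 0.89 ± 0.07 (1.85-fold, adjusted p = 5.47e-04), from 63.2 to 69.6 CPM to 115 to 127. Syvn1, the gene of HRD1 itself, rose by 0.43 ± 0.07, a call lost in right ventricles alone (adjusted p = 0.062). For Ern1, Atf6 and Sel1l the libraries of the 2 stages overlapped and the estimates were −0.04 to 0.10.

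In the integrated stress response group Atf5 (0.64 ± 0.10), Atf3 (0.56 ± 0.14) and Ddit3 (0.49 ± 0.09) rose with stage in controls and Ppp1r15a fell by 0.35 ± 0.09. Atf4 had 0.03 ± 0.08, Eif2ak3 0.15 ± 0.08 and Asns −0.26 ± 0.09 (adjusted p = 0.0641). Phgdh fell by 1.09 ± 0.08 (2.12-fold, adjusted p = 4.22e-04), from 38.4 to 63.5 CPM to 20.4 to 29, and Shmt2 rose by 0.25 ± 0.08. The 2 serine and one-carbon calls thus had opposite signs. Leaving out 1 control ended the call for Shmt2 (without replicate 2 or 4, adjusted p 0.308 and 0.138), Ppp1r15a (without replicate 3 or 5, adjusted p 0.108 and 0.0676) and Atf3 (without replicate 4, adjusted p = 0.0624). The call for Atf3 was also lost in left ventricles alone (0.34, adjusted p = 0.114). That for Shmt2 was lost in right ventricles alone (adjusted p = 0.156) and with a filter of 1 CPM in 3 libraries (adjusted p = 0.0548).

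Of the heat shock genes 5 of 8 rose with stage in controls. Hspa1b rose by 1.16 ± 0.15 (2.23-fold, adjusted p = 0.00251), Hspa1a by 1.01 ± 0.26 (2.01-fold, adjusted p = 0.0261), Hsph1 by 0.72 ± 0.08, Hspa8 by 0.59 ± 0.10 and Bag3, an HSP70 co-chaperone of striated muscle, by 0.56 ± 0.06. The call for Hspa1a was lost without control replicate 4 (0.74, adjusted p = 0.109) and in DESeq2 (adjusted p = 0.0854). Hsp90aa1 had −0.02 ± 0.08 and Dnajb1 and Hspb1 0.08 and 0.09. Cardiomyocyte markers were also higher at E17.5 (5 of 8 higher, 0 lower, median 0.34), as were 5 of 13 immediate early genes, with 2 lower, and red cell markers were lower (4 of 8, median −1.13). Their part in the stage differences was not tested.

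**Figure D4:**
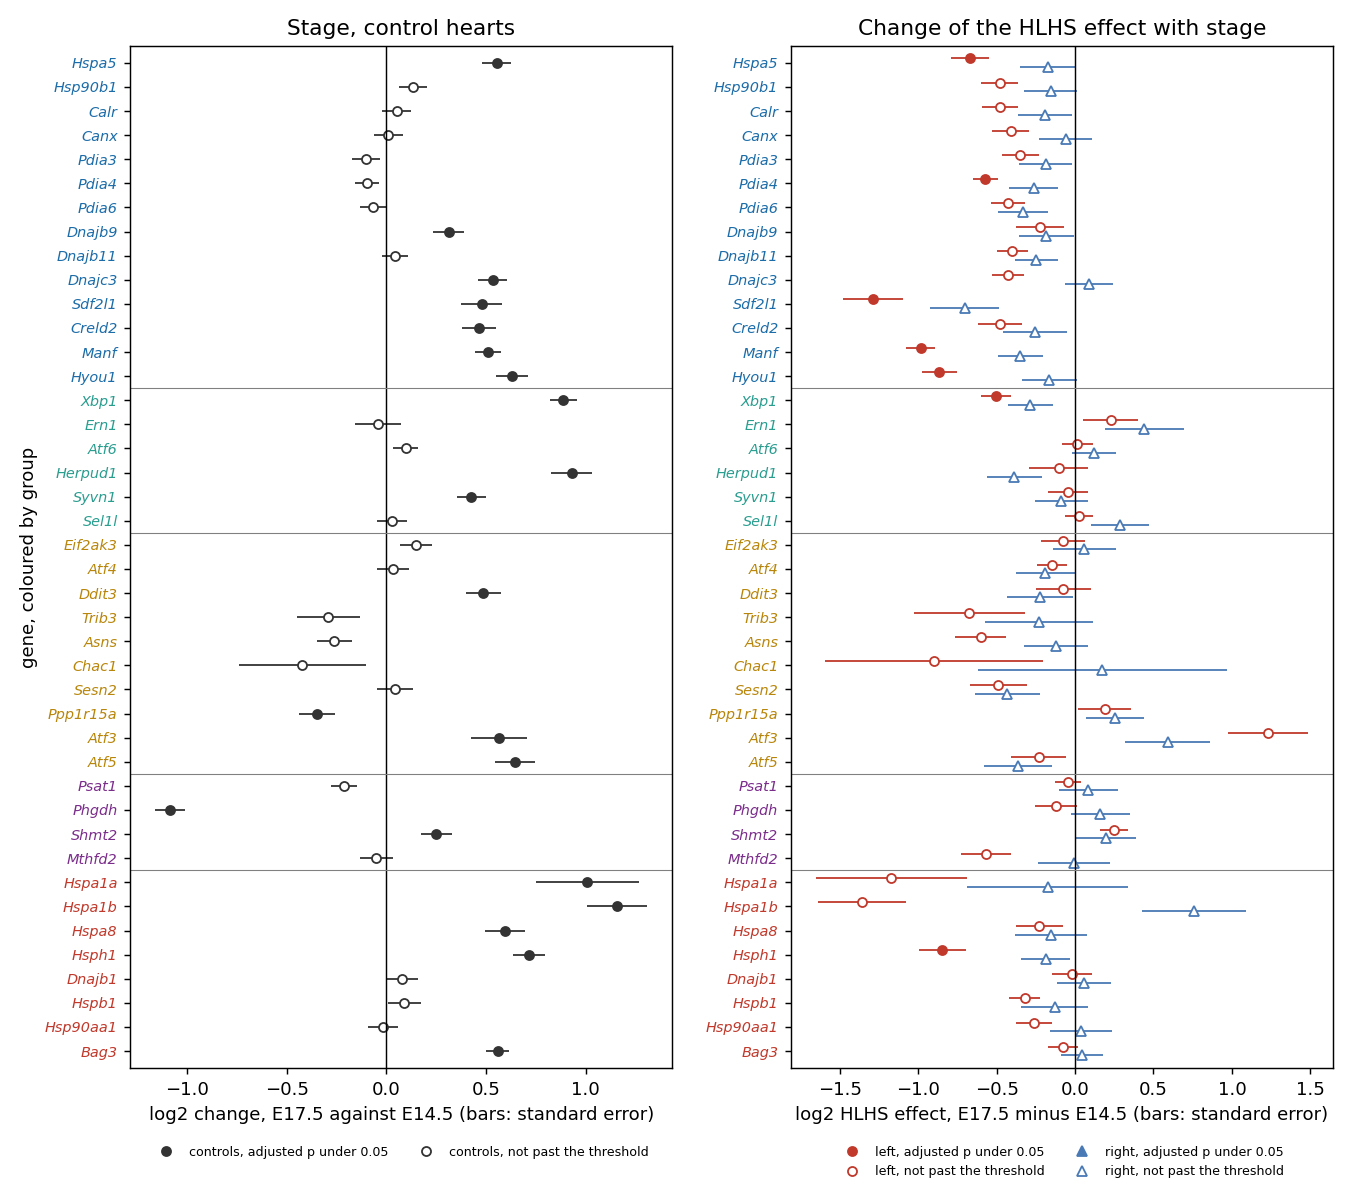
The left panel shows log2 changes from E14.5 to E17.5 in control embryos, and the right panel the HLHS minus control difference at E17.5 minus that at E14.5 for the left (circles) and the right ventricle (triangles), with standard errors and filled symbols for an adjusted p under 0.05. In the right panel the left-ventricle points of all 14 chaperones are below 0 and 5 of them are filled, while no right-ventricle point is filled.

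The change of the HLHS effect with stage was tested directly in the left ventricle. The difference between HLHS and control at E17.5 minus that at E14.5 was negative past the threshold for 7 members, 5 of them chaperones, where 1.05% of all genes were called lower, 0.827% higher and 1.88% in either direction. It was −0.98 ± 0.09 for Manf (adjusted p = 0.00731), −1.29 ± 0.19 for Sdf2l1 (adjusted p = 0.0264), −0.86 ± 0.11 for Hyou1 (adjusted p = 0.0175), −0.67 ± 0.12 for Hspa5 (adjusted p = 0.0426) and −0.57 ± 0.08 for Pdia4 (adjusted p = 0.0217). Xbp1 had −0.50 ± 0.10 (adjusted p = 0.0485) and Hsph1 −0.85 ± 0.15 (adjusted p = 0.0426).

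In CPM, Manf in the left ventricle was at 118 in HLHS against 80.1 and 79.4 at E14.5 and at 79.6 against 109.5 and 103 at E17.5. Sdf2l1 was at 28.2 against 14 and 13.3, then at 14.2 against 15.4 and 18.2. Hyou1 was at 120.8 against 79.3 and 71.0, then at 107 against 118 and 124. For these 3 the HLHS library was above both controls in 1 litter and below both in the other. Pdia4 differed from them in staying above both controls, by a smaller margin at E17.5.

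All 14 chaperones had an estimate below 0 for this change, with a median of −0.48, and 13 had an unadjusted p under 0.05, where 18.3% of all genes did. Atf3 went the other way, at 1.23 ± 0.25 (adjusted p = 0.0584), and Hspa1b had −1.36 ± 0.28 (adjusted p = 0.0577), both short of the threshold. Among the markers Tagln of smooth muscle was also called lower (−2.75 ± 0.17), and so was Myh6 of cardiomyocytes (−1.21 ± 0.20). Of the immediate early genes Jun was called higher (0.78 ± 0.13) and Ier3 lower (−0.72 ± 0.13). The part of these in the result was not tested. The test rests on 1 HLHS library a stage, which is assumed to vary as the control pairs do, and it uses the same control libraries as the comparison of stages above. Without control replicate 4 the number called was 4, since Hspa5, Xbp1 and Hsph1 were lost (adjusted p 0.06 to 0.0677). Hspa5 was also lost without control replicate 3 (adjusted p = 0.0819) and Xbp1 without control replicate 2 (adjusted p = 0.055) and in DESeq2 (adjusted p = 0.131), which called 10 members.

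In the right ventricle the same test called no member and no gene at all in edgeR (0 of 16700, a share of 0%), with 2 members and 6.17% of all genes at an unadjusted p under 0.05. DESeq2 called 0 members. Chaperone estimates were below 0 for 13 of 14, with a median of −0.19, among them Sdf2l1 at −0.70 ± 0.22 and Manf at −0.35 ± 0.14.

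Further genes of each pathway, which are not members, were counted in the same fits. Their counts are to be read against 6.17% of all genes called higher and 6.61% lower in the HLHS left ventricle, 3.56% and 3.05% in the right, and 15.1% and 13% with stage in controls. Of 35 other genes of ER folding, translocation and degradation, 34 had an estimate above 0 in the HLHS left ventricle, 8 were higher and 0 lower in edgeR, and the median was 0.19. They included the disulfide isomerase gene Pdia5 (0.46 ± 0.08, adjusted p = 0.00704), the mannosidase-like genes Edem1 (0.36 ± 0.06) and Edem2 (0.34 ± 0.07) and Wfs1 (0.41 ± 0.09). On the right 34 of the 35 were again above 0 and 4 were higher, Txndc5 (0.59 ± 0.08, adjusted p = 0.00663), Edem1 (0.35 ± 0.07), P4hb (0.31 ± 0.07) and Pdia5 (0.36 ± 0.08). The change of the HLHS effect from E14.5 to E17.5 on the left was called lower for Ssr1 (−0.53 ± 0.09), Creb3l2 (−0.65 ± 0.11), Spcs3 (−0.53 ± 0.10) and Txndc5 (−0.50 ± 0.10).

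Of 23 other integrated stress response genes, 2 were higher and 0 lower in each HLHS ventricle, a share near that of all genes, with Gpt2, a mitochondrial alanine aminotransferase, called in both (0.58 ± 0.09 on the left, 0.51 ± 0.12 on the right). Of 18 other genes of amino acid supply, tRNA charging and one-carbon metabolism, 4 were higher and 2 lower on the left. Mthfd1l, the mitochondrial formate synthetase, rose by 0.77 ± 0.09, while Shmt1, the cytosolic counterpart of Shmt2, fell by 0.48 ± 0.08 and Aldh1l2 by 0.55 ± 0.10.

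Of 31 other cytosolic heat shock genes 1 was higher (Hspb8, 0.33 ± 0.07) and 1 lower (Hspb3, −0.34 ± 0.09) in the HLHS left ventricle. On the right 4 small heat shock genes of muscle were lower and 0 higher, namely Hspb6 (−0.59 ± 0.09), Hspb7 (−0.36 ± 0.08), Hspb2 (−0.33 ± 0.08) and Hspb3 (−0.38 ± 0.09). Cardiomyocyte markers had 2 of 8 lower in those libraries in edgeR (median −0.30) and 5 of 8 in DESeq2. In stage order 8, 8 and 7 of the 8 were below all littermates, where 47.4%, 36.4% and 36.3% of all genes were. The part of these markers in the result was not tested. With stage in controls 14 of the 31 rose and 0 fell in edgeR, among them Dnaja4 (0.79 ± 0.07) and Chordc1 (0.70 ± 0.07). Of 9 mitochondrial chaperones and proteases 6 rose and 0 fell, with Dnaja3 at 0.70 ± 0.08.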

How the data were processed

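RNA-seq read counts per Ensembl gene were used as deposited. Per the submitters' processing notes, the authors used TopHat2 2.0.9, Picard, HTSeq 0.5.4p5, edgeR 3.4.2 and the mm9 build. The sources used here do not give how the authors filtered reads before making these counts, their annotation or a strand setting, so overlapping and antisense genes cannot be told apart. The members and lists of other genes were chosen with earlier results of these data known.

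Samples were grouped by their labels into control and HLHS, left and right ventricle, with embryo and litter from the titles. Each comparison was tested in R 4.3.3 with edgeR 4.0.16 (quasi-likelihood test, TMM normalization, filterByExpr at its minimum of 10 reads and total of 15). P-values were adjusted over all genes tested by the Benjamini-Hochberg method, with 0.05 as the threshold, and the standard error is the log2 change divided by the square root of F. HLHS was compared with control within each ventricle with litter, which is stage, as a block. The difference between the sides used all 16 libraries with embryo as a block and a side by stage term, and left against right had embryo as a block. The stage comparison of controls (E17.5 against E14.5) summed the counts of an embryo's ventricles, in a fit that also held the E13.5 control. The change of the HLHS effect between these stages was a phenotype by stage term whose error comes from the control pairs. The pairing of ventricles is that of the embryo in the titles, and the control pairs' differences on the left and on the right correlated at 0.331 at E14.5 and 0.370 at E17.5 over 16209 genes. No 2 control libraries of a stage and side were alike within counting noise (chi-square at least 7.01 per degree of freedom).

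CPM levels used TMM factors over the 16209 genes kept in all 16 libraries, and log2 CPM had a prior count of 2. All 15 lists of other genes and markers held 189 genes, of which 188 were found. Lists are described by counts and medians with no test of their own. Estimates are given for members past the threshold in a comparison of phenotype, side or a difference of effects. They are also given for Hspa5, Hsp90b1, Xbp1, Ern1, Atf6, Eif2ak3, Atf4, Ddit3, Asns, Phgdh, Hspa1a, Hspa1b and Hspa8 whatever their result. Most of these members also have CPM levels, in the libraries described, but Ern1, Eif2ak3, Hspa8 and Ppp1r15a do not. Other members were named for contrast after their values were seen, and other lists by up to 4 genes with the smallest p. Alternatives were DESeq2 1.42.0 (its test, and its size factors in edgeR), no count filter, a filter of 1 CPM in 3 libraries, no block and leaving out each embryo. The test was tried on simulated data.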

Additional observations from a re-analysis of the deposited data

Results flagged for a closer look

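In 6 of the 84 sets of 5 control libraries (42 genes in each ventricle) 1 library lay far from the other 4 by Dixon's criterion, which chance meets in about 1 set in 20. All 6 are control replicate 1, the one control of E13.5, so the stage and the library cannot be told apart. In the left ventricle Canx was at 336 CPM there against 491 to 528 in the others, and Hspb1 at 257 against 205 to 215. In the right ventricle Canx was at 355 CPM against 462 to 488, Pdia6 at 295 against 245 to 255, Dnajb9 at 12.4 against 23.3 to 29.4 and Sesn2 at 19.7 against 12.5 to 13.8.

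The HLHS effect in the left ventricle differed between the E17.5 and E14.5 litters for 7 members by the test of the difference itself. The log2 change was −0.67 for Hspa5, −0.57 for Pdia4, −1.29 for Sdf2l1, −0.98 for Manf, −0.86 for Hyou1, −0.5 for Xbp1 and −0.85 for Hsph1, each with 1 HLHS library a stage.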

How the results depend on the processing

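No value past the threshold changed sign under any alternative run. Of named values short of it, the fit without the E17.5 litter turned the sign of Herpud1 (0.02) and Hspa1b (−0.12) on the right and of Ddit3 on the left (0.01). In the left ventricle 7 members were called for HLHS against control, 14 in DESeq2, 17 with no count filter, 22 without the E17.5 litter and 2 to 22 leaving out 1 embryo. In the right ventricle 4 were called, 7 with no count filter, 1 without the E17.5 litter and 0 to 5 leaving out 1 embryo. The counts of all genes called in DESeq2 and with no count filter are not given here for either ventricle. With no replicate block for the litter, 0 were called in either ventricle, and over all genes 2043 became 1 on the left and 1067 became 0 on the right. For the difference of the effect between sides, 0 became 1 with no count filter and 0 to 1 leaving out 1 embryo, and it stayed 0 without the block. Over all genes that comparison went from 171 to 267 in DESeq2, 356 with no count filter, 24 without the block and 3 without the side by stage term. Left against right called 2 members in controls, 1 without the embryo block, and 1 to 3 leaving out 1 embryo. In HLHS it called 1, 3 with no count filter, 1 without the block and 1 to 5 leaving out 1 embryo. The 21 stage calls ranged from 17 to 23 under all alternatives. For the change of the HLHS effect from E14.5 to E17.5 in the left ventricle 7 became 10 in DESeq2, 16 with no count filter (311 genes became 1339) and 4 to 8 leaving out 1 embryo. In the right ventricle it was 0 members under every alternative run, with 11 genes in DESeq2. Leaving out HLHS replicate 2 or 3 could not be fitted there. Where a value moved, the cause was not tested. Depth limits Chac1, Hspa1a, Trib3 and Hspa1b most, at 7 to 180 reads per library.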
